A study of Mus musculus with 4 samples.

Results

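Carbonic anhydrases are zinc enzymes that interconvert carbon dioxide and water with bicarbonate and a proton. They differ in where they sit: some are free in the cytosol, 1 kind is mitochondrial, 1 is secreted and several face the outside of the cell from the plasma membrane, while a few related proteins have lost the activity. In bone the family is best known from osteoclasts, where the cytosolic enzyme of Car2 supplies the protons that dissolve mineral. Bicarbonate and protons also matter to the cells that lay mineral down, because the growth of calcium phosphate crystals releases acid.

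The genes described here are Car2, Car3, Car4, Car5b, Car6, Car8, Car12, Car13 and Car14. Every probe set that the array's annotation gives to 1 of these 9 symbols was taken, which gave 20 of the 45037 probe sets that were not controls. The other 7 carbonic anhydrase genes with a probe set (Car1, Car5a, Car7, Car9, Car10, Car11 and Car15) had 10 probe sets and are used for comparison.

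The arrays measured total RNA of mouse MC3T3-E1 cells, an immortal, fibroblast-like preosteoblast line from the calvaria of newborn C57BL/6 mice. The groups were osteogenic medium at day 3, normal medium at day 3, osteogenic medium at day 6 and normal medium at day 6, with 1 Affymetrix Mouse Genome 430 2.0 array each. Normal medium was MEM α with 10% fetal bovine serum, which all groups shared, and osteogenic medium also held beta-glycerophosphate (10 mM) as a phosphate source and ascorbic acid 2-phosphate (150 µM) as a stable form of vitamin C. All 4 arrays came from a single cell line, and nothing in the labels ties an array to more than 1 culture.

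Each group being 1 array, neither the medium differences of a day nor the changes over time have a replicate error or a test. Signals below are the deposited intensities shifted to a common 75th percentile, and a signal under 57.8, the median of all probe sets, was treated as a floor because no detection calls were used. Values under the floor have no order, and a difference from the floor is written as "at least". A gene was called higher or lower at 2-fold, a log2 difference of 1. The disagreement of probe sets within genes put the error of 1 probe set at 0.30 on the log2 scale for the medium comparison of day 3 and 0.29 for that of day 6. This covers probe error alone, since the probe sets compared share their arrays, so any spread between cultures or arrays is not in it. Fewer cells that make an RNA and less of it per cell cannot be told apart in bulk samples.

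Of 11 listed osteoblast markers 8 had a probe set, counting here and below only probe sets annotated to 1 symbol. Runx2, Bglap and Spp1 had none of this kind. Alpl, Col1a1, Col1a2, Ibsp, Dmp1, Sp7 and Pth1r were above the floor on all 4 arrays and Phex on both osteogenic ones alone. The osteogenic day 6 array stood apart in 1 control, the 5′ probe set for 18S ribosomal RNA, with a deposited signal of 746 against 5202 to 9162 on the others. Its 3′ to 5′ signal ratio for Gapdh, 0.763, lay within the range of the other arrays, 0.756 to 0.769, and that for beta-actin, 1.25, was the highest of a range that began at 1.17. As the only array of its group it could not be left out of the day 6 medium comparison.

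Car3, Car6 and Car13 carry what the medium comparisons show for these genes. By 1 of its 4 probe sets Car3 was at least 5.15-fold higher in osteogenic medium at day 3 and at least 6.56-fold at day 6. Another on the same transcript gave 1.18-fold at day 3 and at least 1.82-fold at day 6. Car6 was 7.96-fold higher at day 6, with no level above the floor in either medium at day 3. Car13 was 1.72-fold higher at day 3 by its brightest probe set, short of 2-fold. At day 6 its probe sets parted, with 1.18-fold and 1.32-fold higher and 1.29-fold lower. Of the others, Car5b was measured on every array with probe sets that disagreed, Car12 passed the floor on 1 array, and Car2, Car4, Car8 and Car14 passed it on none.

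**Figure D1:**
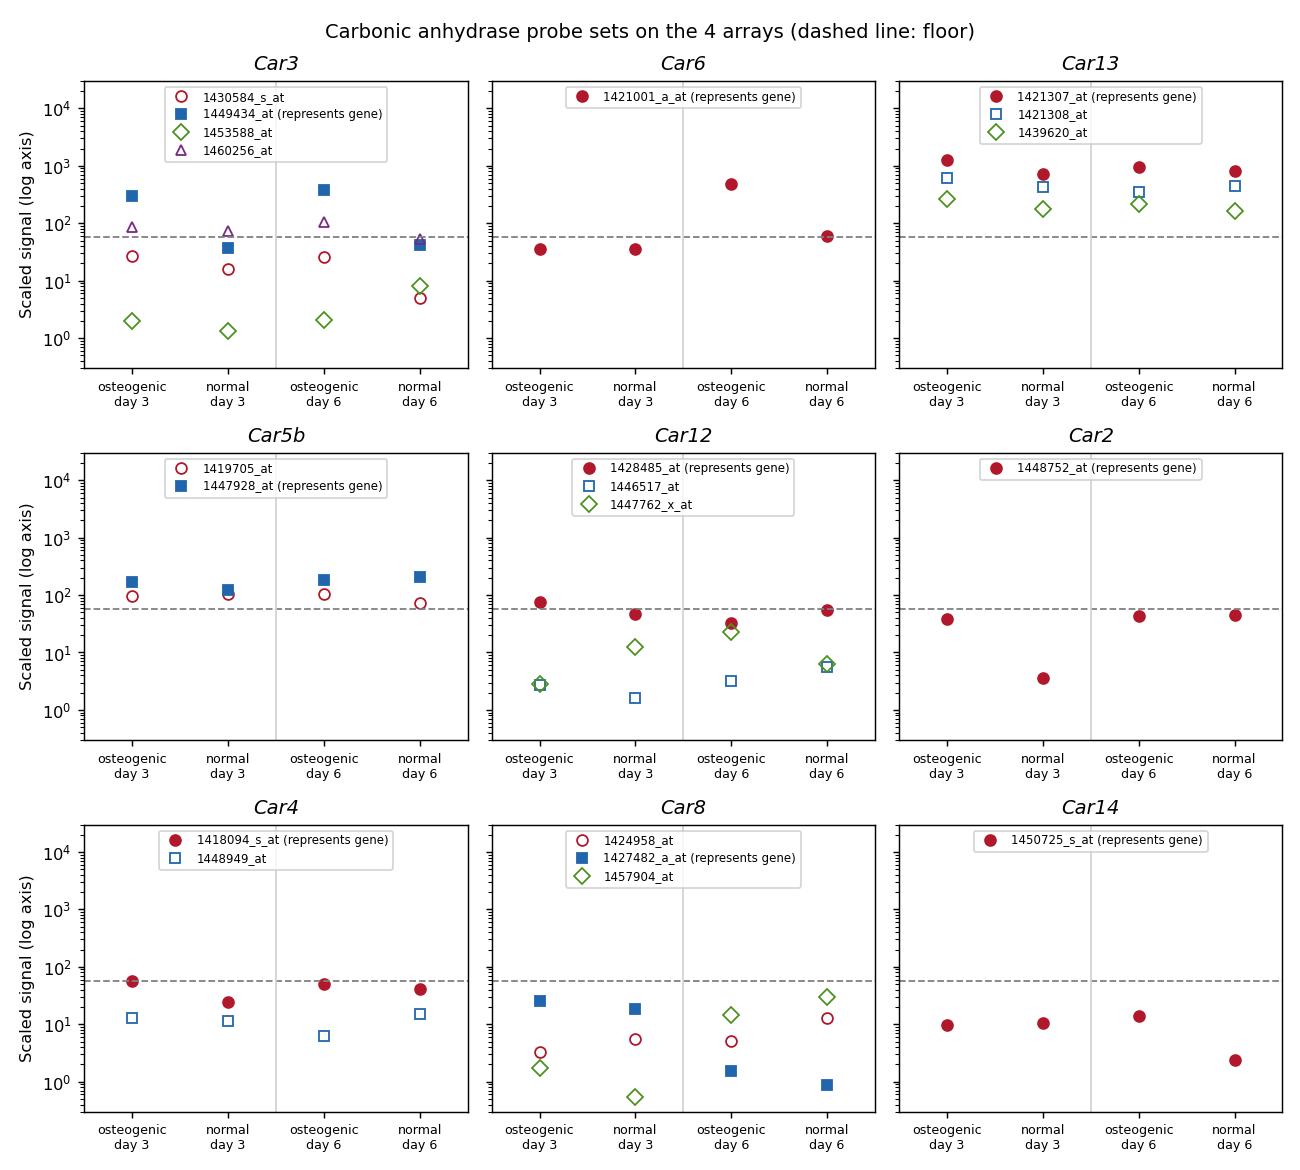
Scaled signal (log axis) of each of the 20 probe sets on the 4 arrays, with a panel per gene, filled symbols for the probe set that represents the gene and a dashed line at the floor of 57.8. Probe set 1449434_at of Car3 lies above the line on both osteogenic arrays and below it on both normal ones, Car6 is high on the osteogenic day 6 array, and all 3 Car13 probe sets stay above the line.

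The active cytosolic enzymes among the 9 are those of Car3, Car13 and Car2. Car3 encodes a cytosolic carbonic anhydrase of low activity that is abundant in skeletal muscle, fat and liver. Its probe set 1449434_at had a signal of 298 in osteogenic medium against 37.2 in normal medium at day 3. At day 6 it had 379 in osteogenic medium against 41.0 in normal medium. Both osteogenic arrays were thus above the floor and both normal arrays below it, at either day.

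The bounds for Car3 correspond to log2 differences of 2.37 at day 3 and 2.71 at day 6. Among all measured genes they ranked 11 from the top of 11861 at day 3 and 33 from the top of 11901 at day 6. Within osteogenic medium, day 6 differed from day 3 by a log2 of 0.35, close to the probe set error of 0.30 for that comparison. By this probe set the medium difference was past 2-fold at both days, which the other probe sets of Car3 did not show.

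The other Car3 probe sets did not match that size. Probe set 1460256_at, designed on the same RefSeq transcript, had signals of 86.1 in osteogenic and 73.0 in normal medium at day 3. At day 6 it had 105 in osteogenic medium against 54.0, below the floor, in normal medium. Its log2 medium differences were 0.24 at day 3 and at least 0.86 at day 6, in the same direction as the first probe set. The day 3 difference was short of 2-fold, and the day 6 bound did not reach it. Probe sets 1430584_s_at and 1453588_at, both designed on 1 expressed sequence tag, stayed between 1.35 and 26.8 on all arrays, below the floor. The 2-fold call for Car3 thus rests on 1 of its 4 probe sets. When all Car3 probe sets were averaged, the log2 difference was 0.65 at day 3 and 0.89 at day 6. Probe sets under the floor on all arrays enter that average with no difference, which lowers it by construction.

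Car3 is a marker of muscle and fat, so markers of both were read on the same arrays. Of 10 skeletal muscle genes 6 were below the floor on all arrays, Myog, Myod1, Myh3, Myh4, Tnnt3 and Actn2. Acta1 and Mylpf were above it on all arrays, Ckm on 3 and Tnni2 on 1. Acta1 had the highest signals of the list, with 166 and 172 in osteogenic medium at days 3 and 6, against 220 and 249 in normal medium. The summed muscle signal was 418 and 503 in osteogenic medium at days 3 and 6, against 512 and 474 in normal medium. Of 7 adipocyte genes with a probe set 5 were below the floor on all arrays, Adipoq, Fabp4, Lep, Cidec and Pparg. Cebpa was above it on all arrays, between 740 and 883, and Retn on both normal arrays. The summed adipocyte signal was 1011 and 869 in osteogenic medium at days 3 and 6, against 921 and 1021 in normal medium. Both sums include values under the floor, and the part of such cells in the Car3 values was not tested.

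Car13 encodes another cytosolic carbonic anhydrase, with a wide tissue distribution. Its probe set 1421307_at had 1266 in osteogenic and 734 in normal medium at day 3, and 950 in osteogenic and 809 in normal medium at day 6. Osteogenic medium was therefore higher at both days by this probe set, and the day 3 osteogenic array was the highest of the 4. The log2 medium difference was 0.79 at day 3 and 0.23 at day 6, within the probe set error of that day.

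All 3 Car13 probe sets were above the floor on every array, and all 3 were higher in osteogenic medium at day 3. Probe set 1421308_at had 605 in osteogenic and 426 in normal medium, a log2 difference of 0.51, and probe set 1439620_at had 265 in osteogenic and 176 in normal medium, a difference of 0.59. At day 6 they parted. Probe set 1421308_at had 352 in osteogenic medium against 454 in normal medium (log2 -0.37), and 1439620_at had 216 in osteogenic against 164 in normal medium (0.40). Within osteogenic medium all 3 were lower at day 6 than at day 3, by -0.41, -0.78 and -0.29 on the log2 scale. In normal medium the days differed by 0.14, 0.093 and -0.098, each within the probe set error of 0.27.

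Car2, the highly active cytosolic enzyme of osteoclasts and red cells, was below the floor throughout. Its single probe set had 38.0 in osteogenic medium against 3.58 in normal medium at day 3, and 42.5 in osteogenic against 45.2 in normal medium at day 6. The low normal day 3 value has no order against the others, as all 4 lay under the floor.

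Markers of the cells known for Car2 were mixed. Of 9 osteoclast genes with a probe set, Acp5, Oscar, Calcr, Ocstamp and Dcstamp were below the floor on all arrays, while Ctsk, Itgb3 and Mmp9 were above it on all and Atp6v0d2 on the osteogenic day 6 array. Ctsk was the highest, with 3962 and 7019 in osteogenic medium at days 3 and 6, against 3236 and 4152 in normal medium. The summed osteoclast signal was 5054 and 8221 in osteogenic medium at days 3 and 6, against 4161 and 5119 in normal medium. Ctsk makes up most of each sum. Mmp9 went the other way at day 6, with 198 in osteogenic against 415 in normal medium (log2 -1.07). It was the only 1 of 4 measured past 2-fold at that day, where 6.96% of all genes passed, and the other 3 were higher in osteogenic medium. Of 6 erythroid genes with a probe set, 4 were below the floor on all arrays, Hba-a1, Hba-a2, Alas2 and Ermap, while Epor passed it on 3 arrays and Klf1 on 1.

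Car13, Car3 and Car2 are neighbours. In the mouse assembly GRCm38.p6 the protein-coding genes Car13, Car1, Car3 and Car2 follow each other on chromosome 3 with no other protein-coding gene between them. Car1, the abundant enzyme of red cells, had a signal of 39.0 or less on every array, below the floor. Within this cluster, then, the outer gene Car13 was above the floor on all 4 arrays, Car3 by its brightest probe set in osteogenic medium alone, and Car1 and Car2 on none.

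Car6 encodes the secreted carbonic anhydrase of saliva and milk. In mouse cells a second, intracellular form of the transcript, with its own start, is known to be induced by cell stress through CHOP, the transcription factor encoded by Ddit3. The array has 1 probe set for the gene, 1421001_a_at, whose suffix marks probes shared by several transcripts of 1 gene, and the values do not tell the forms apart.

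The Car6 signal was 485 in osteogenic medium against 60.9, just above the floor, in normal medium at day 6. At day 3 it was 36.3 in both media, below the floor. Only the osteogenic day 6 array was thus clearly above the floor. The log2 medium difference at day 6 was 2.99, which ranked 17 from the top of 11901 measured genes. Within osteogenic medium, day 6 was at least 8.39-fold higher than day 3, and in normal medium the bound was 1.05-fold.

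Both Car6 differences rest on a single probe set and on the osteogenic day 6 array, the one with the low 18S control signal, and whether that array's quality has a part in them was not tested. Of the settings tried at day 6 a floor at the 60th percentile gave the lowest log2 difference, 2.02. With no second probe set, no other value on these arrays bears on it.

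Car9, which is not among the 9 genes, passed the floor on the osteogenic day 6 array alone. It encodes a membrane-bound enzyme with an extracellular active site that is induced by low oxygen through HIF. Its signal was 164 in osteogenic against 20.2 in normal medium at day 6, at least 2.84-fold higher, and 21.8 in osteogenic against 5.44 in normal medium at day 3. A higher floor, set at the 60th percentile, brought its log2 bound at day 6 down to 0.45, short of 2-fold.

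The promoters of Car6 and Car9 are shown because both genes were below the floor at day 3 and past 2-fold between the media at day 6. Each run is the 250 bases before the annotated RefSeq start in GRCm38.p6, read 5′ to 3′ on the gene's strand, at chr4:150201136-150201385 on the minus strand for Car6 and chr4:43506776-43507025 on the plus strand for Car9. Capitals mark matches, on either strand, to the HIF core ACGTG or GCGTG, RUNX TGTGGT, AP-1 TGANTCA, ATF4 TGATGCAA or CRE TGACGTCA motifs.
Car6: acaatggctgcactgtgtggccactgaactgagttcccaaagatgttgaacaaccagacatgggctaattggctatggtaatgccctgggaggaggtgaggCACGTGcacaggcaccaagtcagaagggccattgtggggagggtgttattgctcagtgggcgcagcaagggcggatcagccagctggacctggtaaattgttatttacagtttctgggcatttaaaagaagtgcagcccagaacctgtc
Car9: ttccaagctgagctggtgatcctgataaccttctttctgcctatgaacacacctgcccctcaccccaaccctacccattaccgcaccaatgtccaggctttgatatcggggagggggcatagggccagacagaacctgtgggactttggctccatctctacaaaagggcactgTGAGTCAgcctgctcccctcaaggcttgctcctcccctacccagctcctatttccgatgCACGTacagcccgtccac

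In the Car6 window ACGTG matched on both strands at overlapping positions, as the palindrome CACGTG, whose first base lies 149 bases before the start. In the Car9 window ACGTG matched on the opposite strand 18 bases before the start and TGANTCA matched 77 bases before it. Of 32851 promoter windows of this length, 16.6% held ACGTG, 28.2% GCGTG, 14.0% TGTGGT, 6.75% TGANTCA, 1.55% TGACGTCA and 0.791% TGATGCAA. Neither window held any of the other motifs. These matches describe the letters alone, and the Car6 window belongs to the annotated start, not to that of the stress-induced form. Of the other members' windows, that of Car5b held GCGTG at 5 places, that of Car12 held TGTGGT, that of Car14 held ACGTG and that of Car4 held none of the motifs. The promoter set used had no window for Car2, Car3, Car8 or Car13, so these were not searched.

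Car5b encodes a mitochondrial carbonic anhydrase. Both of its probe sets were above the floor on all arrays and they disagreed in direction. Probe set 1447928_at had 169 in osteogenic and 122 in normal medium at day 3, and 180 in osteogenic and 208 in normal medium at day 6. Probe set 1419705_at had 97.6 in osteogenic and 105 in normal medium at day 3, and 106 in osteogenic and 71.8 in normal medium at day 6.

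The log2 medium differences of Car5b were therefore 0.47 and -0.10 at day 3 and -0.20 and 0.56 at day 6 for the probe sets in that order. Between days in normal medium they were 0.77 and -0.54. In osteogenic medium the days differed by 0.094 and 0.12, which is the 1 Car5b comparison where the probe sets gave the same direction, within the probe set error. Averaged over both, the change of the medium difference between days was -0.0075. No direction is given for Car5b.

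Of the membrane-bound enzymes among the 9 genes, Car12 alone passed the floor. It encodes a transmembrane enzyme with its active site outside the cell. Its probe set 1428485_at had 77.2 in osteogenic medium against 47.2 in normal medium at day 3, and 32.1 in osteogenic against 54.8 in normal medium at day 6. It passed the floor on the osteogenic day 3 array alone, at least 1.33-fold above normal medium. Its other probe sets lay between 1.64 and 22.7. Under a lower floor, at the 40th percentile, Car12 was lower at day 6 than at day 3 in osteogenic medium by -1.11 on the log2 scale.

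Car4, which encodes an enzyme held to the outer membrane by a lipid anchor, had its highest signal, 57.1, in osteogenic medium at day 3, just under the floor. The same probe set had 24.5 in normal medium at day 3, and 51.0 in osteogenic and 41.6 in normal medium at day 6. Car14, a transmembrane enzyme of brain, liver and retina, had 9.84 in osteogenic and 10.6 in normal medium at day 3, and 13.7 in osteogenic and 2.43 in normal medium at day 6. All these values were below the floor.

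Car8 encodes a related protein with no carbonic anhydrase activity, best known from Purkinje cells of the cerebellum. Its 3 probe sets lay between 0.532 and 29.4, so no difference was measured. In all, 11 of the 20 probe sets were below the floor on every array, 4 passed it on some arrays and 5 on all.

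**Figure D2:**
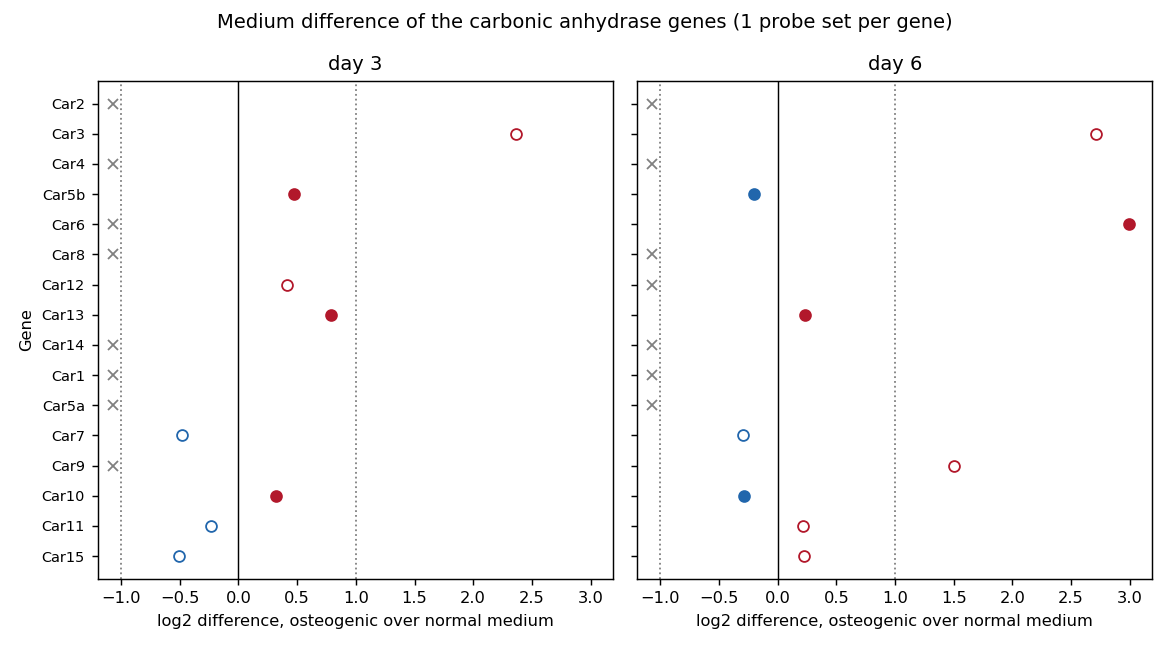
Log2 difference of osteogenic over normal medium (x axis) at day 3 and day 6 for the 16 carbonic anhydrase genes, 1 probe set per gene. Open circles have 1 array at the floor, crosses at the left edge mark genes below it on both arrays, and dotted lines mark 2-fold: Car3 at both days, and Car6 and Car9 at day 6, lie beyond them.

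Counted by gene, 1 of the 4 genes measured at day 3, Car3, was higher and none lower, where 3.57% of all 11861 measured genes passed 2-fold in either direction. Their median log2 difference was 0.63 against 0.0092 for all genes. At day 6 Car3 and Car6 were higher and none lower of 4 measured, where 6.96% of 11901 genes passed, and the median was 1.47 against 0.013. The 4 differed between the days, as Car12 passed the floor at day 3 and Car6 at day 6. A gene enters these counts if it passed the floor in at least 1 of the media, so the medians do not stand for all 9 genes. At day 3 Car3 and Car12, and at day 6 Car3, passed it in osteogenic medium alone, which fixes a positive sign for them. The medians are therefore no measure of a shift of the family.

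**Figure D3:**
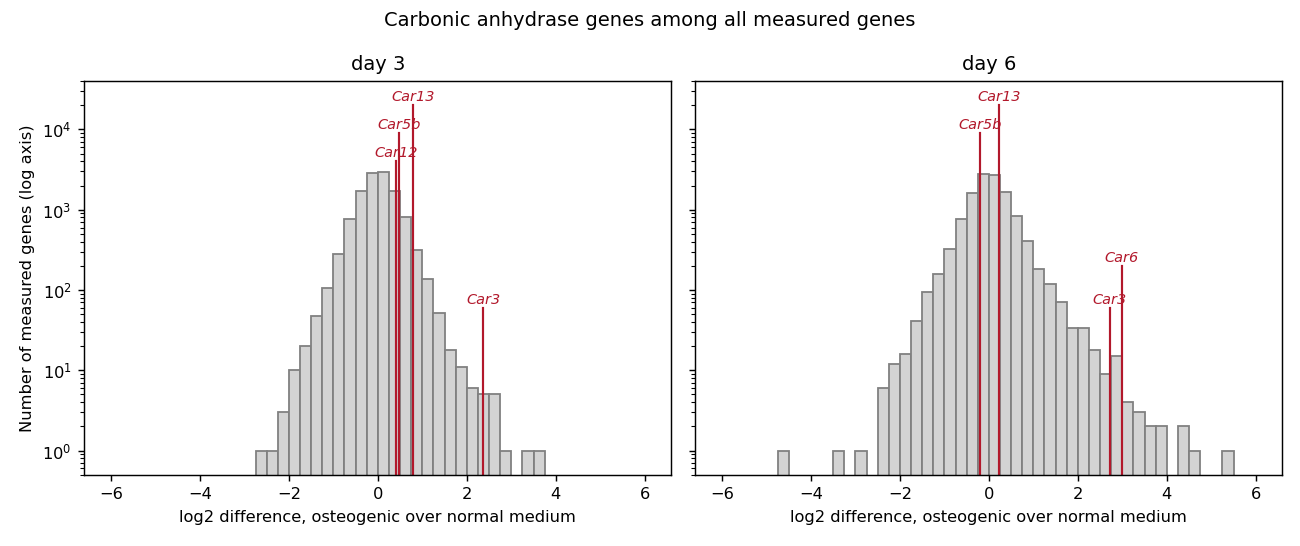
Number of measured genes (log axis) by log2 difference of osteogenic over normal medium at day 3 and day 6, with lines at the measured carbonic anhydrase genes. Car3 at 2.37 and 2.71 and Car6 at 2.99 lie in the upper tail. Car5b at both days and Car13 at day 6 lie in the main body of the genes, and Car13 at day 3 ranks 484 from the top of 11861.

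Between days, Car6 was the only 1 of 5 measured genes past 2-fold in osteogenic medium, higher at day 6, where 6.32% of 11947 genes passed in either direction. In normal medium 0 of 3 measured genes passed, where 1.48% of 11736 genes did. For the change of the medium difference between days, Car6 was the only 1 of 5 past a log2 of 1, where 7.42% of 12503 genes were. Its value, 2.99, sets both day 3 arrays at the floor and is no bound. Car5b (-0.68), Car13 (-0.55), Car12 (-0.42) and Car3 (0.35) were not. These comparisons share arrays with the medium comparisons, so they are not separate support.

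Medium and day were also fitted together with limma on all 4 arrays, which leaves 1 residual degree of freedom, and any interaction of the 2 factors falls into it. The adjusted p from limma was 0.104 for Car3, with a log2 medium difference of 2.54 ± 0.19 (SE), higher in osteogenic medium at both days. Both normal arrays were at the floor for Car3, so neither that difference nor its SE contains a spread between them. The adjusted p of Car3 ranged from 0.0843 to 0.664 over the 10 settings in which it was measured. For Car13 the limma fit gave 0.51 ± 0.21 (SE, adjusted p 0.398), for Car6 an adjusted p of 0.442, for Car12 0.21 ± 0.20 (0.687) and for Car5b 0.13 ± 0.23 (0.847). Across all 12503 genes 0 passed 5% in this limma fit (0.0% called), with a lowest adjusted p of 0.104. An unadjusted p under 0.05 was reached by 1737 genes, or by 848 with each gene's own variance, where the lowest adjusted p was 0.227.

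The genes whose profiles over the 4 arrays were closest to Car13 and Car5b, the 2 members above the floor throughout, were found by Euclidean distance between log2 values less their mean, among 10249 other genes. For Car13 they were Lipt2 (distance 0.032), Uevld (0.056), Ankrd40 (0.065), Atg4d (0.069) and Bckdhb (0.072). For Car5b, by its brighter probe set, they were Zfp870 (0.065), Psd (0.069), Fancg (0.091), Akap6 (0.11) and Fcsk (0.11). With 4 values per gene, such closeness is a description of these arrays.

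The same was done for Car3 and Car6 with values at the floor kept, a choice made after their values were seen, among 12502 genes. Closest to Car3 were Ramp1 (0.21), Ifitm5 (0.30), Tnfrsf11b (0.38), Igfbp2 (0.38) and Sostdc1 (0.58). Ifitm5, a membrane protein gene of osteoblasts, had 277 in osteogenic against 8.33 in normal medium at day 3, and 351 in osteogenic against 69.2 in normal medium at day 6. Closest to Car6 were Nrip2 (0.24), Slc40a1 (0.52), Sema7a (0.55), Ddit3 (0.56) and Cd300lb (0.60). Ddit3, which encodes CHOP, had 6901 in osteogenic against 1423 in normal medium at day 6, and 1109 in osteogenic against 1279 in normal medium at day 3.

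Of the other carbonic anhydrase genes, Car10, which encodes a related protein without activity, was above the floor on all arrays, with 80.9 in osteogenic and 64.7 in normal medium at day 3 and 68.3 in osteogenic and 83.6 in normal medium at day 6. Car7, a cytosolic enzyme of brain, had 43.5 and 46.4 in osteogenic medium at days 3 and 6, below the floor, against 80.9 and 71.0 in normal medium. Car11 and Car15 were below the floor in osteogenic medium at day 3, with 8.60 and 11.6, against 68.1 and 82.4 in normal medium. Their bounds, log2 -0.24 and -0.51, fell short of 2-fold. Car1 and the mitochondrial liver enzyme gene Car5a stayed below the floor. Of the 5 measured at day 6, 1, Car9, was higher by 2-fold and none lower, where 6.96% of all genes passed, and of the 4 measured at day 3 none passed, where 3.57% did.

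Carbonic anhydrases work with transporters that move their products across membranes. Of 15 listed bicarbonate transporter genes 13 had a probe set, 8 were measured at day 3 and 7 at day 6. None passed 2-fold at day 3, where 3.57% of all genes did, and 1, Slc26a7, was lower at day 6, where 6.96% passed. Slc26a7, a chloride and bicarbonate exchanger of kidney, stomach and thyroid, had 138 in osteogenic medium against 663 in normal medium at day 6, 4.82-fold lower and 9 from the bottom of 11901 measured genes. At day 3 it had 335 in osteogenic and 406 in normal medium, a log2 difference of -0.28. Its other probe set was below the floor on all arrays.

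No other bicarbonate transporter was called between media. Slc4a8 had 62.9 in osteogenic against 8.99 in normal medium at day 3 and 73.4 in osteogenic against 3.46 in normal medium at day 6, which gives bounds of 1.09-fold and 1.27-fold alone. Slc4a5, Slc4a9, Slc4a10, Slc26a3 and Slc26a4 were below the floor on all arrays. The anion exchanger gene Slc4a2, the partner of the osteoclast enzyme in acid secretion, had 1136 in osteogenic and 878 in normal medium at day 3, and 1365 in osteogenic and 1111 in normal medium at day 6. Its log2 differences were 0.37 and 0.30. The list's median was 0.090 at day 3 and 0.30 at day 6, against 0.0092 and 0.013 for all genes. Between days in osteogenic medium, 2 of 8 were higher and 1 lower at day 6, where 6.32% of all genes passed. Slc4a3 and Slc4a4 were 2.29-fold and at least 2.34-fold higher, each by 1 probe set, while another Slc4a4 probe set was at least 1.71-fold lower. Slc26a7 was 2.44-fold lower.

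No sodium-proton exchanger gene was called between media among 4 measured at each day, nor were Slc9a3r1 and Slc9a3r2, which encode their scaffold proteins. Of all genes 3.57% passed at day 3 and 6.96% at day 6. The highest was Slc9a9, an exchanger of endosomes, with 284 in osteogenic against 170 in normal medium at day 3 and 450 in osteogenic against 244 in normal medium at day 6. Its log2 differences were 0.74 and 0.88. Of the monocarboxylate transporter genes, only some of which encode exporters of lactate together with protons, none was called. There were 2 measured at day 3 and 3 at day 6, where 3.57% and 6.96% of all genes passed. Slc16a4 had 501 in osteogenic against 261 in normal medium at day 3 (log2 0.94) and 329 in osteogenic against 304 in normal medium at day 6 (0.11). Slc16a1 had 3185 in osteogenic against 2172 in normal medium at day 6 (0.55). Bsg, the chaperone of these transporters, differed by -0.26 and -0.17, and its relative Emb by -0.44 and -0.77 by its representative probe set. Another Emb probe set, above the floor on all arrays, was past 2-fold lower in osteogenic medium at both days, by -1.03 and -1.05.

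**Figure D4:**
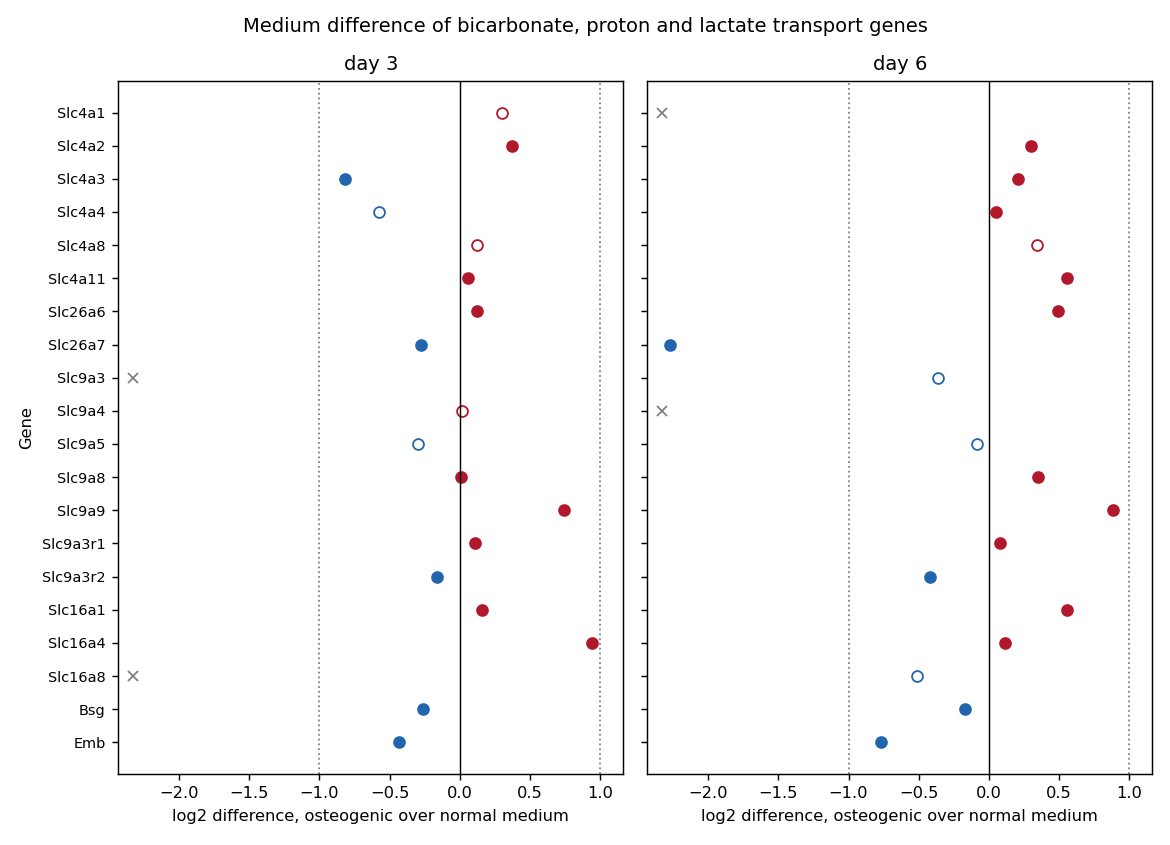
Log2 difference of osteogenic over normal medium (x axis) at day 3 and day 6 for the transport genes above the floor on at least 1 array, 1 probe set per gene, with symbols as in the plot of the 16 carbonic anhydrase genes. Slc26a7 at day 6 is the only point beyond the 2-fold lines, on the lower side.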

How the data were processed

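Per the labels' protocols, total RNA passed an integrity number of 9.5, and biotin-labelled cRNA was made from 500 ng of it with a 3′ in vitro transcription kit. The values the authors deposited are linear intensities, 1 for each probe set on each array, and each array had a mean of 500 after the lowest and highest 2% were left out. The summarisation software is not given in the sources used here.

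Gene names came from the platform annotation, and RefSeq of GRCm38.p6 gave 0 changed symbols for the family. Of 45101 probe sets, 64 controls, 932 with several symbols and 9160 without one entered no gene count, which left 34945 for 18193 genes. Arrays were shifted to a common 75th percentile, values under the pooled 50th percentile (57.8) were set to that floor, and log2 was taken. The probe set with the highest mean represented a gene, and a comparison covered the genes above the floor on 1 or more of its arrays. The 5 comparisons were the media at day 3 and at day 6, the days in each medium, and the change of the medium difference from one day to the other. Medium was also fitted with day in limma 3.58.1 (R 4.3.3) with Benjamini-Hochberg adjustment.

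The members, lists and tests were chosen with earlier results of these data known. Named genes were the 9 members, the rest of the family, transporters past 2-fold between media and the 5 closest profiles to 2 members; other transporters were named after their values were seen, as were marker genes and the profiles for Car3 and Car6. In simulated arrays the noise came from the difference between the normal medium arrays of the 2 days, not from replicates. Altered genes were drawn from those with a mean signal above 2 times the floor, so their recovery does not stand for dimmer genes. Of 100 altered by a log2 of 1.5, 96 passed 2-fold at day 3, among 11990 measured, as did 328 of 11790 left unaltered. The limma step recovered 8 of 100 such genes and 97 of 100 altered by 3, among 13059. Depth has no counterpart here, and the number of arrays limits the precision.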

Additional observations from a re-analysis of the deposited data

Results flagged for a closer look

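Car10, which encodes a related protein without carbonic anhydrase activity, had medium differences in opposite directions at the 2 days. Its log2 difference, osteogenic over normal medium, was 0.3212 at day 3 and -0.2905 at day 6. Each was barely larger in size than the probe set error of that comparison, 0.2996 and 0.2894. With 50 added to every signal in place of the floor they were 0.19 and -0.17, smaller than those errors. The difference at day 6 minus that at day 3 was -0.61. The signals ran from 64.7 to 83.6, close to the floor, and its other probe set was below the floor on all arrays. With 1 array per group this difference was not tested.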

How the results depend on the processing

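Of 193 alternative values for single members, 165 moved by less than the probe set error, 28 by more and none of the called differences turned its sign. Counts of members past 2-fold changed as follows. At day 3 the count, 1, became 3 of 9 with neither floor nor filter (24.6% of all genes passed). It became 0 when both arrays had to be above the floor (2.87% of all genes) or probe sets were averaged (2.16%). At day 6 the count, 2, became 3 of 9 with neither floor nor filter (26.3% of all genes). It became 1, Car6, where both arrays had to be above the floor (6.3% of all genes) or probe sets were averaged (4.72%). With plain-suffix probe sets alone, where Car6 has none, it became 1, Car3 (6.79% of all genes). In normal medium over time 0 became 3 of 9 with neither floor nor filter (22.5% of all genes). In osteogenic medium over time 1 became 2 of 7 under a floor at the 40th percentile (7.93% of all genes). It became 3 of 9 under neither floor nor filter (26.0%), and 0 where both arrays had to pass the floor (5.9%) or plain-suffix probe sets stood alone (6.23%). For the change of the medium difference 1 became 2, 4, 0 and 0 in these 4 settings (10.2%, 32.7%, 6.47% and 7.44% of all genes). The log2 difference of Car3 ran from 0.65 to 3.00 at day 3 and 0.89 to 3.21 at day 6, and that of Car6 at day 6 from 2.02 to 2.99. The limma fit called 0 genes in every setting run, with lowest adjusted p from 0.0756 to 0.664. Requiring both arrays above the floor left Car3 unmeasured between the media, as its normal medium arrays were under it. It also left Car6 unmeasured over time and for the change of the medium difference, as its day 3 arrays were under it. In the averages, Car3 probe sets under the floor on all arrays enter with no difference. What lay behind the remaining changes was not tested. No paired analysis of replicates was possible because each group has 1 array, although the limma fit, with day as a term, compares the media within days. No array can be left out of a group of 1.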
